A study of Mus musculus with 6 samples.

Results

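The genes described here are 10 that load and display peptides on major histocompatibility complex (MHC) class I molecules: the heavy chain genes H2-K1, H2-D1 and H2-T23, the light chain gene B2m, the peptide transporter genes Tap1 and Tap2, the peptide editor gene Tapbp, the immunoproteasome subunit genes Psmb8 and Psmb9, and the class I transactivator gene Nlrc5. They were taken by name. All 10 had transcripts in the files and all 10 passed the filter on low counts, out of 54123 genes with a transcript and 17084 genes tested. Their RNA was measured in 6 bulk libraries of muscle satellite cells, the stem cells of skeletal muscle, from adult C57BL/6 mice. In all 3 groups the tibialis anterior and gastrocnemius had been damaged with cardiotoxin, a snake venom protein that kills muscle fibres, and the cells came from a fluorescence sort at 30 h after that injury. The groups were 2 libraries from cells labelled Jmjd3 KO, for the gene of JMJD3 (Kdm6b), 2 from cells labelled Utx KO, for the gene of UTX (Kdm6a), and 2 from cells labelled Tdt control, which the series title calls wild type. JMJD3 and UTX are demethylases that remove a repressive mark from histone H3. The part of each gene that was deleted, the promoter that drove the deletion, the age of the mice and whether animals were pooled are not given in the sources used here.

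Class I molecules sit on nearly all nucleated cells and show fragments of the cell's own proteins to CD8 T cells. Proteasomes cut proteins into peptides, the TAP1 and TAP2 transporter moves the peptides into the endoplasmic reticulum, and tapasin (gene Tapbp) holds the transporter beside empty heavy chains paired with the B2m light chain until a peptide binds. Interferons raise this whole set of genes, partly through NLRC5, which acts at class I promoters. Resting muscle is known for low class I expression, which rises in inflamed muscle.

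Of the 10 genes, 8 lie within 2.117 megabases of chromosome 17 (GRCm38, GENCODE M21). Psmb9, Tap1, Psmb8 and Tap2 follow one another there from base 34181987 to base 34216321, a stretch of 34335 bases. B2m lies on chromosome 2 (122147686 to 122153083, plus strand) and Nlrc5 on chromosome 8 (94434356 to 94527272, plus strand).

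The libraries held 53750675 to 77675388 estimated reads. The targeted genes were read first. Kdm6b had 15.9 and 16.5 CPM (reads of the gene relative to the normalised library size) in Jmjd3 KO, 22.97 and 22.17 in Utx KO and 29.9 and 22.7 in Tdt control, and fell by 0.70 ± 0.12 in Jmjd3 KO on the log2 scale (± SE; edgeR adjusted p = 0.0243). Kdm6a had 30.3 and 32.4 CPM in Jmjd3 KO, 7.68 and 7.38 in Utx KO and 32.8 and 34.0 in Tdt control, and fell by 2.15 ± 0.06 in Utx KO (edgeR adjusted p = 1.02e-05). Reads of both targeted genes thus remained in their own knockout, and reads outside a deleted part would not show the deletion. All 11 satellite cell markers were detected in every group, with summed CPM of 3839.5 to 4134.6 per library. Single markers differed at an edgeR adjusted p under 0.05. Against Tdt control, Myod1 was lower in both knockouts, Des higher in Jmjd3 KO and Myf5 higher in Utx KO. Between the knockouts, Des was higher and Myf5 and Vcam1 lower in Jmjd3 KO. Markers of macrophages and monocytes summed to 216 to 361 CPM, of neutrophils to 129 to 267, of MHC class II presenting cells to 27.98 to 54.91, and of lymphoid cells to 0.204 to 0.382. Markers of other cells were thus read in each library, and their values stand beside the results they moved with.

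Per length and summed over all transcripts of a gene, the classical heavy chain genes H2-K1 and H2-D1 had the highest means and Nlrc5 the lowest. Over the 6 libraries H2-K1 averaged 48.7 TPM (transcript abundance scaled for length and library size, range 43.2 to 54.5). H2-D1 averaged 47.4 TPM (43.1 to 54.5), so that the order of this pair is not settled over all transcripts. Of the H2-K1 value, 14.1 to 20.6 TPM per library lay in transcripts annotated as keeping an intron, with 10.2% to 13.0% of its reads. Coding transcripts alone had 28.7 to 34.6 TPM for H2-K1 and 42.8 to 54.2 for H2-D1, with H2-D1 the higher in each library. B2m averaged 33.8 TPM (22.2 to 45.6) and overlapped H2-D1 and the coding transcripts of H2-K1 in range. Tapbp followed at 10.5 TPM (8.63 to 14.6) and Tap2 at 6.66 TPM (5.25 to 9.21), also with overlapping ranges. Psmb8 averaged 3.78 TPM, Tap1 3.02, H2-T23 2.05 and Psmb9 1.66, and each of these overlapped its neighbour. Coding transcripts alone had 1.41 to 2.52 TPM for Tap2 and 1.17 to 2.81 for Psmb8. Nlrc5 averaged 0.149 TPM (0.0519 to 0.245), below the lowest library of Psmb9 at 1.26 TPM.

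The upstream sequences of the classical class I genes are shown because the heavy chain genes and B2m are known to share interferon-response, NF-kB, CREB/ATF and NF-Y elements, through which NLRC5 and its partners act. RefSeq promoter windows (GRCm38.p6, 250 bases before each gene's start searched on both strands) were found for 8 of the 10 genes, and not for Tap2 and Nlrc5. Below, capitals mark GGGATTCCC (the classical kappaB site), AANNGAAA or its reverse complement TTTCNNTT (an interferon-response core), TGACG (the CREB/ATF core) and CCAAT or its reverse complement ATTGG (the NF-Y core). H2-K1 is on the minus strand (chr17:34000348-34000527) and B2m on the plus strand (chr2:122147507-122147685). The pieces of H2-D1 are from the plus strand, chr17:35262923-35262951 and chr17:35262993-35263022.
H2-K1: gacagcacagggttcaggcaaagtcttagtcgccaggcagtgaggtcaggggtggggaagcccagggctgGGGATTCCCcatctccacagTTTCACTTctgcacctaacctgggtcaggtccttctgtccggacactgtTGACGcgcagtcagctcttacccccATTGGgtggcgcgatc
B2m: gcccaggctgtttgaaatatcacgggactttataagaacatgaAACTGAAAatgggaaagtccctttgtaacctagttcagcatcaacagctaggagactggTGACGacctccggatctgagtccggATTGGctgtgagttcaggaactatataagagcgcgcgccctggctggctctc
H2-D1, kappaB to interferon-response core: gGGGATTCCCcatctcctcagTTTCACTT
H2-D1, CREB/ATF to NF-Y core: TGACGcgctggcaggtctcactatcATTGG

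In H2-K1, H2-D1 and B2m the TGACG and ATTGG cores stood in the same order with 20 bases between them. That arrangement was present in 30 of 32851 RefSeq windows, or 0.0913%. The order and spacing counted were those of these genes, and their own windows are among the 30. The kappaB site was found in 99 windows (0.301%), 5 of them of the class I genes H2-K1, H2-D1, H2-Q6 and H2-Q7. The single cores are common: AANNGAAA was present in 21.3% of all windows and in the windows of B2m, H2-K1, H2-D1 and H2-T23, TGACG in 17.8% and in those of 5 of the 8 genes, and CCAAT in 33.8% and in those of 7 of the 8. TTCNNNGAA, the core that STAT factors bind, was present in 7.02% of windows and among these 8 genes in that of Psmb8. Over their best local alignment of 177 columns the H2-K1 and H2-D1 windows were identical at 161, or 91.0%. Tap1 and Psmb9 start 226 bases apart on opposite strands (34187556 and 34187330), so that 1 interval lies upstream of both. Their TGACG matches are the same bases of that interval, as are their CCAAT matches, and each was counted for both genes.

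Jmjd3 KO cells were set against Tdt control cells to ask what loss of JMJD3 does in satellite cells that answer an injury. The peptide transporter genes Tap1 and Tap2 and the immunoproteasome gene Psmb8 rose, by 1.47-fold, 1.59-fold and 1.43-fold. The heavy chain genes, B2m, Tapbp, Psmb9 and Nlrc5 were not called by edgeR, with log2 fold changes from 0.14 to 0.52. All 3 calls were upward, a share read against 1.97% of the 17084 genes called higher and 1.03% called lower (3% in either direction). All 10 genes had both Jmjd3 KO libraries above both Tdt control libraries, which held for 26.2% of genes tested (25.5% the other way). The median log2 fold change of the 10 genes was 0.44, and that of all genes tested was -0.0047. In the same comparison the median was 0.17 over 16 macrophage and monocyte markers (12 above 0), 0.32 over 10 class II and antigen-presenting cell markers (10 above 0) and 0.68 over 11 neutrophil markers (9 above 0), and their part in the result was not tested.

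**Figure D1:**
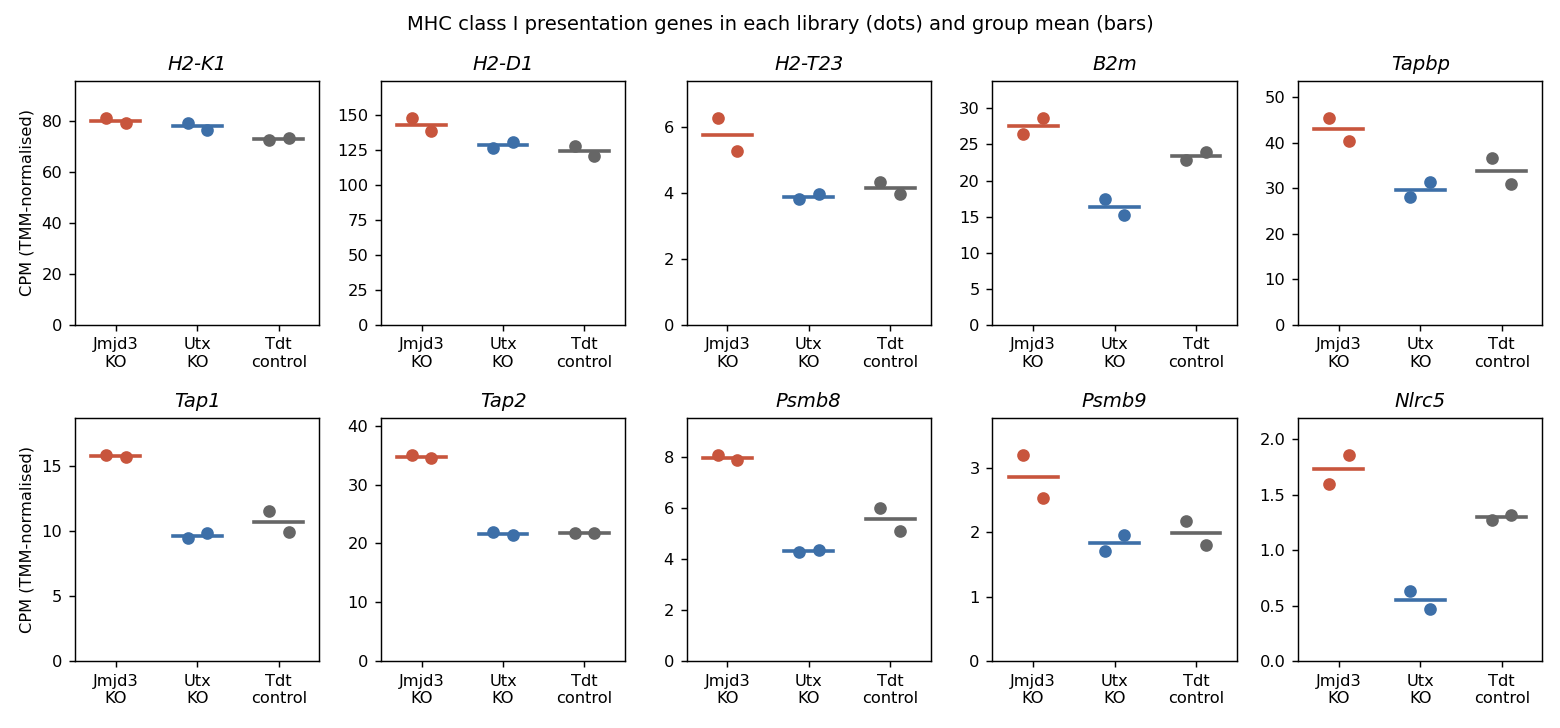
CPM (y axis, linear, from 0) of each of the 10 genes in Jmjd3 KO, Utx KO and Tdt control. Dots are libraries (n = 2 per group) and bars are group means; in every panel both Jmjd3 KO dots lie above both Tdt control dots, while Utx KO dots lie below them for B2m, Tap1, Psmb8, H2-T23 and Nlrc5.

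Both genes of the transporter were called. Tap2 had 35.0 and 34.5 CPM in Jmjd3 KO, against 21.8 and 21.8 in Tdt control. Tap1 had 15.8 and 15.7 CPM in Jmjd3 KO, against 11.502 and 9.94 in Tdt control. The libraries of each group lay close together for Tap2, and further apart in Tdt control for Tap1. Tap2 rose by 0.67 ± 0.05 on the log2 scale (edgeR adjusted p = 8.63e-04) and Tap1 by 0.55 ± 0.09 (edgeR adjusted p = 0.0196). The call of Tap1 was lost when either Jmjd3 KO library was left out (adjusted p = 0.139 without replicate 1 and 0.0978 without replicate 2), and when Tdt control replicate 2 was (0.0667). Tapbp, whose product bridges the transporter and the heavy chain, had 45.4 and 40.5 CPM in Jmjd3 KO, against 36.72 and 31.02 in Tdt control. Its log2 fold change was 0.34 ± 0.10 (edgeR adjusted p = 0.107, DESeq2 adjusted p = 0.0275).

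Among the immunoproteasome genes, Psmb8 had 8.09 and 7.88 CPM in Jmjd3 KO, against 6.00 and 5.12 in Tdt control. It rose by 0.52 ± 0.10 (edgeR adjusted p = 0.0449), just under the threshold of 0.05. This call was lost when any 1 of the 6 libraries was left out, with adjusted p from 0.0670 to 0.221. Psmb9 had 3.20 and 2.52 CPM in Jmjd3 KO, against 2.17 and 1.81 in Tdt control. Its log2 fold change was of the same size at 0.52 ± 0.18, with a wider error and an adjusted p of 0.175 by edgeR.

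None of the genes of the surface molecule was called by edgeR, and DESeq2 called H2-D1 (adjusted p = 0.0218). H2-K1 had 81.0 and 79.0 CPM in Jmjd3 KO, against 72.3 and 73.2 in Tdt control (log2 fold change 0.14 ± 0.05, edgeR adjusted p = 0.217). H2-D1 had 148 and 139 CPM in Jmjd3 KO, against 128 and 121 in Tdt control (0.21 ± 0.06, adjusted p = 0.112 by edgeR). H2-T23, the gene of the nonclassical molecule Qa-1, had 6.26 and 5.26 CPM in Jmjd3 KO, against 4.33 and 3.98 in Tdt control (0.47 ± 0.12, edgeR adjusted p = 0.0838). For all 3 both Jmjd3 KO libraries lay above both Tdt control libraries, as for 26.2% of genes tested. B2m had 26.5 and 28.6 CPM in Jmjd3 KO, against 22.8 and 23.9 in Tdt control, with a log2 fold change of 0.24 ± 0.08 (edgeR adjusted p = 0.138). Nlrc5 had 1.60 and 1.86 CPM in Jmjd3 KO, against 1.276 and 1.321 in Tdt control, from 105 and 120 reads against 97 and 87. Its log2 fold change was 0.41 ± 0.21 (edgeR adjusted p = 0.335).

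**Figure D2:**
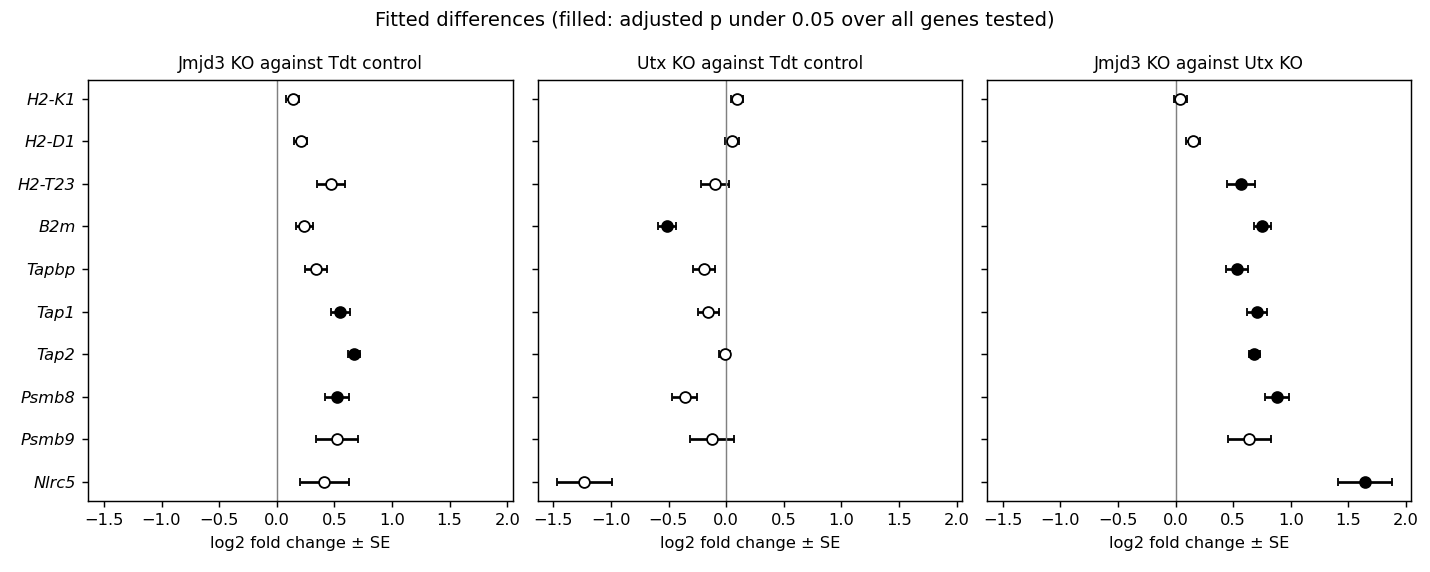
Fitted log2 fold changes (x axis, ± SE) of the 10 genes (rows) in each comparison; filled dots passed an adjusted p of 0.05 over all genes tested. Jmjd3 KO lay above Tdt control for all 10, Utx KO lay farthest below Tdt control for Nlrc5 (-1.23) and B2m (-0.51), and 7 genes passed between the 2 knockouts.

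Utx KO cells were set against Tdt control cells for the same question about UTX, with the same 2 Tdt control libraries as in the comparison of Jmjd3 KO. B2m fell by 0.51 ± 0.08 on the log2 scale, 1.43-fold lower (edgeR adjusted p = 0.0279), and it was the 1 gene of the 10 called, where 1.72% of genes tested were called with 0.79% higher and 0.925% lower. B2m had 17.4 and 15.3 CPM in Utx KO, against 22.8 and 23.9 in Tdt control, without overlap. The edgeR call of B2m was lost when any 1 library was left out, so this edgeR call needs all 6. In those fits its log2 fold change was -0.61 to -0.42. On all 6 libraries DESeq2 gave B2m an adjusted p of 4.73e-05. The classical heavy chain genes, whose products pair with B2m, did not pass the test. H2-K1 had 79.1 and 76.3 CPM in Utx KO, against 72.3 and 73.2 in Tdt control (0.10 ± 0.05, edgeR adjusted p = 0.442). H2-D1 had 127 and 131 CPM in Utx KO, against 128 and 121 in Tdt control, with overlapping groups (0.05 ± 0.06, edgeR adjusted p = 0.730). In TPM over all transcripts, B2m amounted to 0.219 and 0.208 of the summed class I heavy chain genes in Utx KO. In Tdt control it amounted to 0.313 and 0.320. The same ratio was 0.312 and 0.359 in Jmjd3 KO.

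Nlrc5 had the widest difference of the set in Utx KO, at 0.632 and 0.476 CPM against 1.276 and 1.321 in Tdt control. These values rest on 34 and 28 reads in Utx KO, against 97 and 87 in Tdt control. The groups did not overlap, and the log2 fold change was -1.23 ± 0.24 with an adjusted p of 0.0540 by edgeR, just over the threshold. DESeq2 gave 0.0123. With offsets for transcript length the log2 fold change was -0.51 (adjusted p = 0.737). In Utx KO replicate 2 a coding transcript of 7578 bases took 84.7% of Nlrc5 reads and shorter transcripts the rest.

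The remaining presentation genes did not pass the test in Utx KO. Tap2 had 21.9 and 21.4 CPM in Utx KO, against 21.8 and 21.8 in Tdt control (-0.01 ± 0.05, edgeR adjusted p = 0.935). Tap1 had 9.45 and 9.84 CPM in Utx KO, against 11.502 and 9.94 in Tdt control (-0.15 ± 0.09, adjusted p = 0.444 by edgeR). Psmb8, at 4.30 and 4.37 CPM in Utx KO against 6.00 and 5.12 in Tdt control, had a log2 fold change of -0.36 ± 0.11 (edgeR adjusted p = 0.163). Tapbp, H2-T23 and Psmb9 had log2 fold changes of -0.19, -0.10 and -0.12. Over the 10 genes the median was -0.14, and 5 genes had both Utx KO libraries below both Tdt control libraries, against 23.3% of genes tested. H2-K1 alone had both above, against 22.3%. Over the macrophage and monocyte markers the median was -0.40, with 2 of 16 above 0, and over the class II markers -0.43, with 1 of 10 above 0. Neutrophil markers went the other way, with a median of 0.31 and 8 of 11 above 0. Medians were also below 0 for endothelial markers (-0.33, 1 of 10 above 0) and fibro-adipogenic markers (-0.24, 2 of 10 above 0). The part of these cells in the B2m and Nlrc5 values was not tested.

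Jmjd3 KO and Utx KO cells were then compared with each other. Of the 10 differences, those of Nlrc5, Psmb8 and B2m were the largest, and those of H2-K1 and H2-D1 the smallest. In Jmjd3 KO 7 of the 10 genes were higher than in Utx KO, where 5.13% of genes tested were called higher, 2.89% lower and 8.02% in either direction. Nlrc5 differed by 1.64 ± 0.24 on the log2 scale (3.12-fold, edgeR adjusted p = 0.00900), Psmb8 by 0.88 ± 0.11 (1.84-fold, adjusted p = 0.00464) and B2m by 0.75 ± 0.08 (1.69-fold, adjusted p = 0.00276). The Psmb8 values were 8.09 and 7.88 CPM in Jmjd3 KO and 4.30 and 4.37 CPM in Utx KO, an interval wider than the spread of either pair. Tap1 and Tap2 differed by 0.71 ± 0.09 and 0.68 ± 0.05 (edgeR adjusted p = 0.00480 and 4.60e-04). Tapbp had 45.4 and 40.5 CPM in Jmjd3 KO and 27.98 and 31.41 in Utx KO (0.53 ± 0.10, edgeR adjusted p = 0.0194). H2-T23 had 6.26 and 5.26 CPM in Jmjd3 KO and 3.81 and 3.96 in Utx KO (0.57 ± 0.12, edgeR adjusted p = 0.0343).

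Of these calls, that of H2-T23 was lost without any 1 of the 4 knockout libraries (adjusted p from 0.0600 to 0.178). That of Tapbp was lost without Jmjd3 KO replicate 1 (0.117), Jmjd3 KO replicate 2 (0.0568) or Utx KO replicate 1 (0.122), and that of Nlrc5 without Jmjd3 KO replicate 2 (0.0550). With length offsets Nlrc5 differed by 1.02 (adjusted p = 0.339). H2-K1 and H2-D1 differed by 0.04 ± 0.05 and 0.15 ± 0.06 and did not pass (edgeR adjusted p = 0.688 and 0.155). Psmb9 differed by 0.64 ± 0.19 without passing (edgeR adjusted p = 0.0833). The median over the 10 genes was 0.66, and 9 of them had both Jmjd3 KO libraries above both Utx KO libraries, against 28.6% of genes tested (28.6% the other way). All 16 macrophage and monocyte markers and all 10 class II markers also lay above 0, with medians of 0.57 and 0.81.

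Reads of class I heavy chain genes can be shared, since the genes are near copies. Of the 31-base words of the main H2-K1 transcript 23.3% also occur in other genes, and 27.5% of those of H2-D1 and 48.7% of those of H2-T23 do, so that single heavy chain values are uncertain. B2m, Psmb8, Psmb9 and Nlrc5 shared none. When all class I heavy chain genes were summed, the log2 fold change was 0.19 ± 0.05 in Jmjd3 KO against Tdt control (edgeR adjusted p = 0.0887), 0.02 ± 0.05 in Utx KO against Tdt control (adjusted p = 0.887) and 0.17 ± 0.05 in Jmjd3 KO against Utx KO (adjusted p = 0.0832). H2-K1 and H2-D1 together made up 81.5% to 85.2% of heavy chain TPM over all transcripts. Of 12 other heavy chain genes tested, none was called in Jmjd3 KO against Tdt control by edgeR or DESeq2 (3 had an unadjusted edgeR p under 0.05). H2-Q6 had 1.40 and 1.67 CPM in Utx KO, against 3.09 and 3.16 in Tdt control, and fell by 1.03 ± 0.15 (edgeR adjusted p = 0.0263). H2-Q4, H2-Q6 and H2-Q7, genes of the Qa-2 region, were higher in Jmjd3 KO than in Utx KO by 0.31, 1.02 and 0.76 (edgeR adjusted p = 0.0356, 0.00994 and 0.0213).

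Many reads of Tap2 and of Psmb8 were assigned to transcripts annotated as keeping an intron. Tap2-202 keeps the 162 bases between exons 6 and 7 (chromosome 17, 34212068 to 34212229) and holds 57 of the 1097 bases of the first exon of the coding transcript Tap2-201. It took 67.4% and 72.4% of Tap2 reads in Jmjd3 KO, 70.0% and 63.9% in Utx KO and 64.1% and 65.5% in Tdt control. In CPM, Tap2-202 had 23.6 and 25.0 in Jmjd3 KO, 15.4 and 13.7 in Utx KO and 14.0 and 14.3 in Tdt control. The coding transcript Tap2-201 had 11.4 and 9.47 in Jmjd3 KO, 6.58 and 7.68 in Utx KO and 7.80 and 7.51 in Tdt control. Both transcripts were thus higher in both Jmjd3 KO libraries than in any other library.

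Psmb8-205 keeps 190 bases (34199381 to 34199570 on chromosome 17) and took 64.3% and 46.7% of Psmb8 reads in Jmjd3 KO, 66.7% and 55.6% in Utx KO and 48.7% and 58.3% in Tdt control. The coding transcript Psmb8-203 had 2.18 and 2.78 CPM in Jmjd3 KO, 1.34 and 1.36 in Utx KO and 1.64 and 1.81 in Tdt control. Another coding transcript, Psmb8-201, had 0.685 and 0.749 CPM in Jmjd3 KO, 0 and 0.506 in Utx KO and 1.42 and 0.220 in Tdt control. Its Tdt control libraries thus lay on both sides of Jmjd3 KO. When reads of protein-coding transcripts alone were summed, an alternative chosen after seeing the data, the log2 fold change in Jmjd3 KO against Tdt control was 0.43 for Tap2 (edgeR adjusted p = 0.0929) and 0.31 for Psmb8 (adjusted p = 0.481). Neither then passed. The assignment of reads to transcripts is an estimate, and whether the retained introns themselves were read was not tested.

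**Figure D3:**
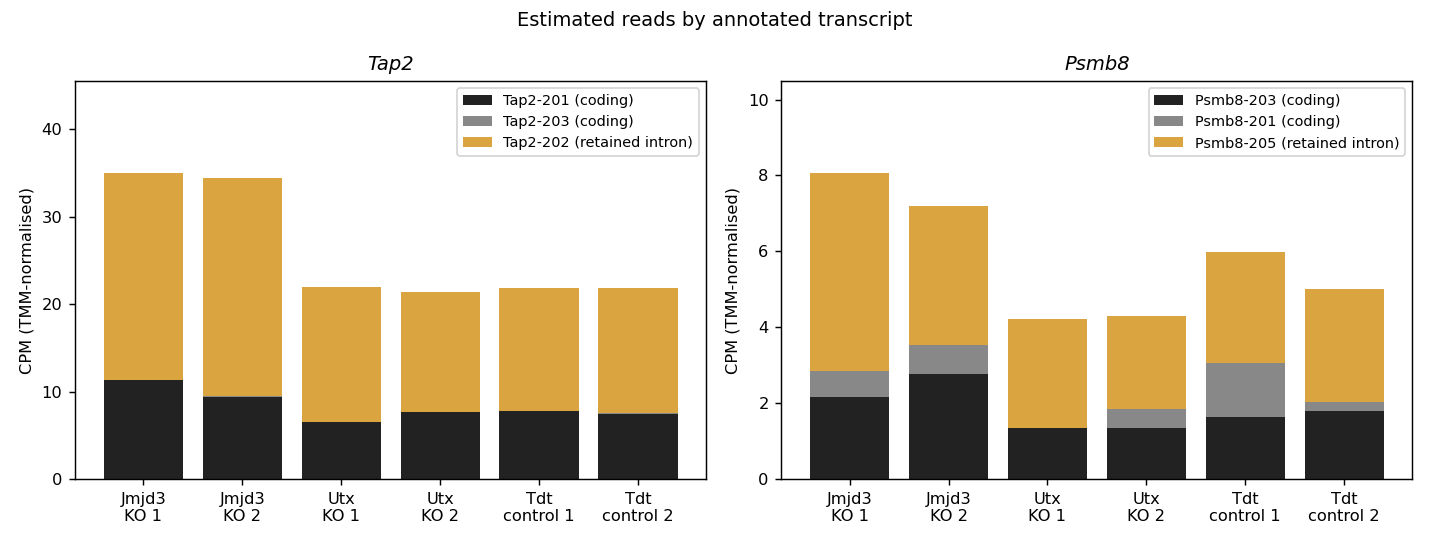
CPM (y axis, stacked from 0) of the main annotated transcripts of Tap2 and Psmb8 in each of the 6 libraries. The part assigned to the retained-intron transcript is 63.9% to 72.4% of all reads of Tap2 and 46.7% to 66.7% of those of Psmb8.

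Other annotated genes overlap some of the set, and whether reads were assigned by strand is not stated. Tap1 and Psmb9 overlap on opposite strands from base 34187553 to base 34187764 of chromosome 17, with Tap1 at 9.45 to 15.8 CPM and Psmb9 at 1.71 to 3.20 CPM, so that their values could share reads there. The antisense gene Gm20496 spans parts of Psmb8 and Tap2 and reached at most 0.0465 CPM. Antisense genes over H2-T23 (A930015D03Rik) and Tapbp (Gm19412) reached at most 0.310 and 0.369 CPM. Zbtb22, on the same strand as Tapbp and within the first part of its annotated span, had 25.2 and 25.1 CPM in Jmjd3 KO, 24.5 and 24.8 in Utx KO and 26.0 and 22.1 in Tdt control.

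The messages of the constitutive catalytic subunits outweighed those of the immunoproteasome in all groups; no protein was measured. Each immunoproteasome subunit replaces 1 constitutive catalytic subunit, Psmb8 for Psmb5, Psmb9 for Psmb6 and Psmb10 for Psmb7, and levels per length can be set beside each other within a pair. Psmb8 made up 3.82% and 4.001% of the summed TPM of Psmb8 and Psmb5 in Jmjd3 KO, 2.23% and 2.12% in Utx KO and 2.79% and 2.599% in Tdt control. The 3 groups did not overlap. These shares count all annotated transcripts. Psmb8 transcripts annotated as keeping an intron had 2.94 and 2.40 TPM in Jmjd3 KO, 1.60 and 1.34 in Utx KO and 1.52 and 1.70 in Tdt control. Coding Psmb8 transcripts had 2.26 and 2.81 TPM in Jmjd3 KO, 1.17 and 1.36 in Utx KO and 1.94 and 1.68 in Tdt control. Psmb9 made up 1.496% and 1.104% of its pair in Jmjd3 KO, 0.806% and 0.976% in Utx KO and 0.976% and 0.946% in Tdt control. Psmb10 made up more of its pair, 15.5% and 15.9% in Jmjd3 KO, 16.4% and 13.7% in Utx KO and 14.6% and 14.6% in Tdt control.

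**Figure D4:**
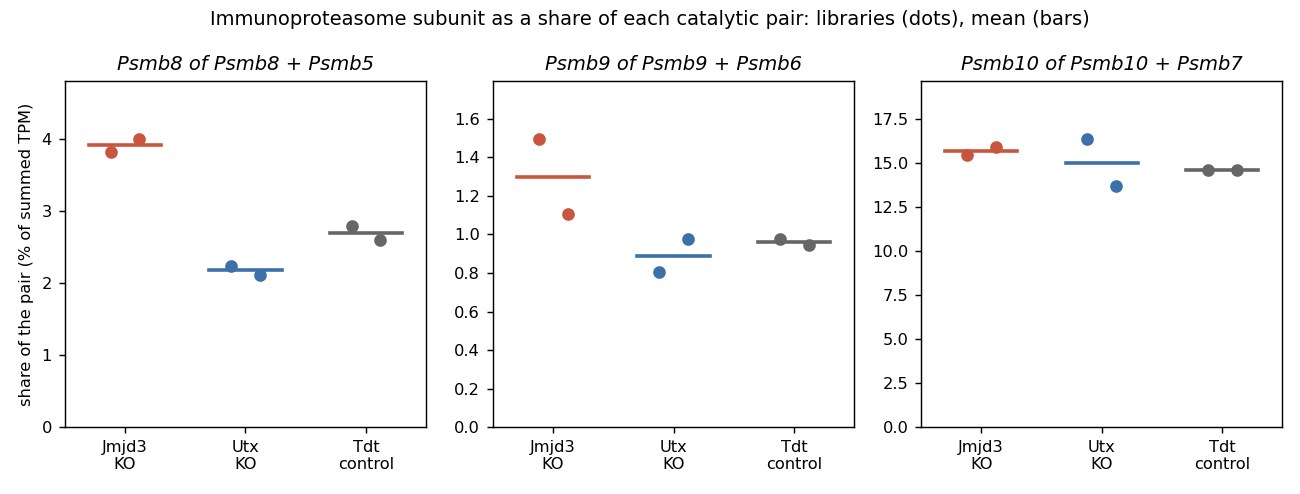
Share of the immunoproteasome subunit in the summed TPM, over all annotated transcripts, of each catalytic pair (y axis, %, from 0, scales differ). Dots are libraries (n = 2 per group) and bars group means; Psmb8 lies at 3.82% and 4.001% in Jmjd3 KO against 2.79% and 2.599% in Tdt control, and Psmb10 at 15.5% and 15.9% against 14.6% and 14.6%.

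Few other proteasome genes passed the test. Of 14 constitutive core proteasome genes none was called in Jmjd3 KO against Tdt control by edgeR or DESeq2 (0 at an unadjusted edgeR p under 0.05), and all 14 log2 fold changes were below 0 (median -0.087). Psmb2 fell by 0.46 ± 0.06 in Utx KO (edgeR adjusted p = 0.0213). Among Psmb10 and the proteasome activator genes, 5 in all, none was called against Tdt control in either knockout by edgeR or DESeq2 (1 in Jmjd3 KO and 2 in Utx KO at an unadjusted edgeR p under 0.05). Psme1 and Psme2, whose products open the proteasome after interferon, were higher in Jmjd3 KO than in Utx KO by 0.35 ± 0.06 and 0.21 ± 0.05 (edgeR adjusted p = 0.0116 and 0.0397). None of 5 proteasome assembly genes was called in any comparison by edgeR or DESeq2, and 1 in each had an unadjusted edgeR p under 0.05.

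Of 15 genes of peptide trimming, loading and quality control, 1 rose in Jmjd3 KO. It was Ide, the gene of an insulin-degrading peptidase, with 253 and 248 CPM in Jmjd3 KO, against 166 and 146 in Tdt control (0.68 ± 0.07, edgeR adjusted p = 0.00446). In Utx KO the chaperone genes Pdia3 and Hspa5 rose by 0.28 ± 0.05 and 0.26 ± 0.04 (edgeR adjusted p = 0.0461 and 0.0267). PDIA3 is the disulfide isomerase of the loading complex, and HSPA5 is the general chaperone of the endoplasmic reticulum. Canx, Pdia3 and Hspa5 were lower in Jmjd3 KO than in Utx KO, by 0.19 to 0.25, which is the opposite direction to the 7 presentation genes called there. Ide was called higher in Jmjd3 KO than in Utx KO, the same direction as those 7 genes.

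Genes that carry or answer interferon signals were read beside the set, from lists that share no gene with it. Of 27 receptor, signalling and regulator genes, Jak2, a kinase of the interferon-gamma receptor, rose in Jmjd3 KO by 0.37 ± 0.07 (edgeR adjusted p = 0.0306). Stat2, which carries type I interferon signals, had 4.43 and 5.76 CPM in Utx KO, against 2.25 and 2.10 in Tdt control, and rose by 1.23 ± 0.16 (edgeR adjusted p = 0.0182). Irf1 and Irf8, transcription factor genes that interferon-gamma induces, were higher in Jmjd3 KO than in Utx KO by 0.34 ± 0.07 and 0.82 ± 0.17 (edgeR adjusted p = 0.0312 and 0.0298). Stat2 was called in the other direction there, lower in Jmjd3 KO than in Utx KO.

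Of 42 interferon-stimulated genes tested, 3 rose in Jmjd3 KO against Tdt control, with a median log2 fold change of 0.34. They were Xaf1, on chromosome 11 like Kdm6b itself (2.40 ± 0.14, edgeR adjusted p = 4.47e-04), Ddx58 (0.56 ± 0.10, adjusted p = 0.0362), the gene of the RNA sensor RIG-I, and Cxcl10 (0.79 ± 0.14, adjusted p = 0.0332), a chemokine gene. In Utx KO the GTPase gene Iigp1 fell by 1.72 ± 0.19 (edgeR adjusted p = 0.0131), none rose, and the median was -0.24. Between the knockouts 21 of the 42 were higher in Jmjd3 KO and none lower, with a median of 0.76. The 4 with the smallest p were Xaf1 (2.31), Iigp1 (1.72), Ddx58 (0.84) and Rsad2 (1.39), with log2 fold changes in brackets. Iigp1 had 2.48 and 2.55 CPM in Jmjd3 KO and 0.856 and 0.680 in Utx KO. Summed over the list of 44, CPM were 480 and 460 in Jmjd3 KO, 389 and 373 in Utx KO and 436 and 397 in Tdt control.

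Median log2 fold changes of the macrophage and monocyte markers and of the class II markers had the sign of these genes in each comparison. Neutrophil markers did not follow them in Utx KO against Tdt control, with a median of 0.31. The sort was of satellite cells, but in bulk RNA fewer cells of a type and less RNA per cell cannot be told apart. The 16 macrophage and monocyte markers summed to 361 and 326 CPM in Jmjd3 KO, 216 and 252 in Utx KO and 244 and 290 in Tdt control, so that both Jmjd3 KO libraries were the highest. Of the 16, 10 were called higher in Jmjd3 KO than in Utx KO. Against Tdt control, Cd14 and Tyrobp rose in Jmjd3 KO (0.72 ± 0.11 and 0.56 ± 0.11, edgeR adjusted p = 0.0206 and 0.0460), and Fcgr1 fell by 0.79 ± 0.14 in Utx KO (adjusted p = 0.0430).

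The 10 genes of MHC class II and antigen-presenting cells summed to 54.9 and 44.8 CPM in Jmjd3 KO, 27.98 and 29.26 in Utx KO and 40.2 and 44.7 in Tdt control. Cd74, the class II invariant chain gene, had 11.4 and 11.1 CPM in Utx KO, against 17.9 and 19.3 in Tdt control, and fell by 0.72 ± 0.10 (edgeR adjusted p = 0.0213). H2-Ab1, H2-Eb1, Cd74 and Itgax were higher in Jmjd3 KO than in Utx KO by 0.67 to 1.15. Ciita, the class II transactivator gene, and Flt3 stayed below 0.5 CPM in every library. The 15 neutrophil markers summed to 267 and 202 CPM in Jmjd3 KO, 176 and 208 in Utx KO and 129 and 143 in Tdt control. Of 11 tested, 4 rose in Jmjd3 KO and 1, Hdc, in Utx KO (0.79 ± 0.11, edgeR adjusted p = 0.0239). Elane was at 0 in every library, and Ly6g, Mpo, Camp and Ltf stayed below 0.5 CPM.

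All 12 lymphoid markers stayed below 0.5 CPM and none was tested. Endothelial markers summed to 50.6 to 74.5 CPM over the 6 libraries, with none called by edgeR in any comparison. At an unadjusted edgeR p under 0.05 there were 1 in Jmjd3 KO, 4 in Utx KO and 2 between the knockouts, and DESeq2 called 0, 1 and 1. Of the markers of fibro-adipogenic cells, the connective tissue progenitors of muscle, 3 of 10, Dcn, Lum and Col1a1, were higher in Jmjd3 KO than in Utx KO by 0.78, 0.71 and 1.15. Over the 10 the median was 0.13, with 7 above 0. Their summed CPM overlapped, at 946 and 929 in Jmjd3 KO, 785 and 943 in Utx KO and 811 and 781 in Tdt control. The part of these other cells in the values of the class I presentation genes was not tested.

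**Figure D5:**
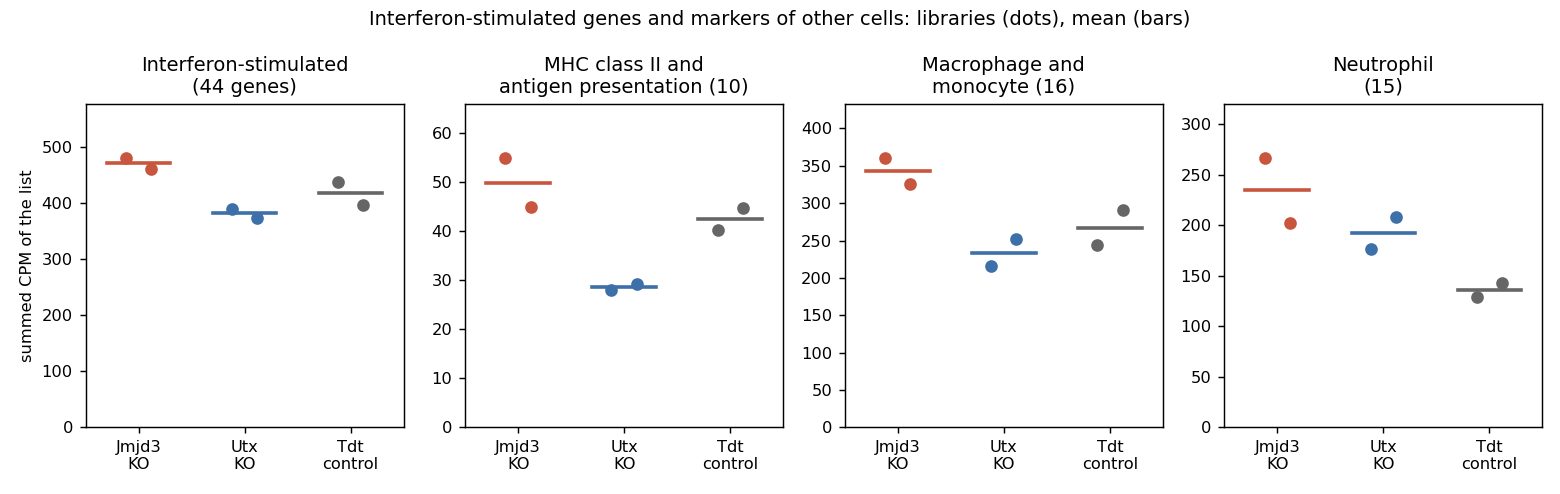
Summed CPM (y axis, from 0; scales differ) of the interferon-stimulated genes and of markers of 3 kinds of immune cell. Dots are libraries (n = 2 per group) and bars group means; Utx KO is lowest for class II genes (27.98 and 29.26) and Tdt control lowest for neutrophil markers (129 and 143).

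On average over the set Jmjd3 KO was highest and Utx KO lowest. In 5 of the 10 genes both Utx KO libraries lay below both Tdt control libraries, with the largest falls in Nlrc5 (log2 fold change -1.23, from few reads) and B2m (-0.51). Tap2, Tapbp and Psmb9 overlapped between Utx KO and Tdt control. H2-K1 and H2-D1 did not follow the order, with log2 fold changes above 0 in Utx KO against Tdt control. The mean over the 10 genes of centred log2 CPM was 0.38 and 0.32 in Jmjd3 KO, -0.29 and -0.31 in Utx KO and -0.0019 and -0.10 in Tdt control. Psmb8 followed this mean most closely (Pearson r = 0.996 over the 6 libraries, the gene itself included) and H2-K1 least (r = 0.407). Among the 10167 other genes with at least 5 CPM on average, those most like it were Arrb1 (r = 0.997), Lrrk2 (0.997), Fam83g (0.995), Rhbdf2 (0.995) and Rhoc (0.995). Fam83g had 71.1 and 69.8 CPM in Jmjd3 KO, 38.6 and 40.1 in Utx KO and 51.2 and 44.8 in Tdt control, the widest steps of these 5. It lies on chromosome 11, as do Rhbdf2 and Kdm6b. With 6 libraries in 3 pairs such r values describe the order of the groups and the level of each pair.

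The authors' deposited table of comparisons with Tdt control gave adjusted p-values for the same genes. For Jmjd3 KO the authors' deposited table put 5 of the 10 below 0.05: Tap2 (log2 fold change 0.64, adjusted p = 1.07e-11), Tap1 (0.55, 9.93e-05), Tapbp (0.38, 0.00319), H2-D1 (0.18, 0.0173) and Psmb8 (0.41, 0.0207). For Utx KO the authors' deposited table put B2m alone below 0.05, with a log2 fold change of -0.47 and an adjusted p of 1.60e-04. Nlrc5 stood at -0.0070 (adjusted p = 0.891) in the authors' deposited table for Utx KO, against -1.23 in the edgeR fit of the summed reads. The deposited log2 fold changes look shrunken and the edgeR value is not, so their sizes are unlike measures. With offsets for transcript length the edgeR value was -0.51 (edgeR adjusted p = 0.737).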

How the data were processed

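Per the submitters' processing notes, cutadapt 2.6, Salmon 1.1.0 and DESeq2 1.28.1 were used, with the builds mm10 and GRCm38. Per the file headers, the deposited quantification files give estimated counts and TPM per transcript. The authors' deposited comparison tables give a mean signal per gene (base mean), log2 fold changes with standard errors, and p-values. Their log2 fold changes look shrunken, by a method not stated.

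Estimated counts were summed per gene by transcript ID without version (GENCODE M21, GRCm38) and rounded. Of 140748 transcripts, 139864 matched a gene, 416 of them only without the version, among them H2-D1-201. The unmatched held 0.151% to 0.175% of reads. No source used here gives the annotation release behind the files. edgeR 4.0.16 (R 4.3.3) fitted all 6 libraries with TMM factors, its low-count filter and a genotype term. A gene was called by the quasi-likelihood test where its Benjamini-Hochberg adjusted p, over 17084 genes, was under 0.05 (biological coefficient of variation 0.0844, 3 residual degrees of freedom). The labels do not say whether replicates are separate animals. The p-values thus measure only the spread between these samples, which may be technical. Replicates of a group differed beyond counting noise (chi-square per degree of freedom 14.7 to 24.8). Promoter motifs were counted in RefSeq windows with Python, and the local alignment used Biopython.

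The 10 genes and the other lists were chosen with earlier results of these data known. The lists held 3 symbols with no match (H2-L, H2-T9 and Nrdc). Genes named besides the 10 were Kdm6a and Kdm6b, called members of each list (up to 4 per list and comparison, by smallest p), catalytic partners of the immunoproteasome subunits, overlapping genes, and the 5 most similar in pattern. Marker genes named and the promoters printed were chosen after their values were seen. As alternatives, each library was left out, the heavy chain genes were summed, the replicate number entered as a block, and protein-coding genes or the 4 libraries of a comparison were fitted alone. Others used upper-quartile or RLE factors, offsets for transcript length, no low-count filter or 5 CPM in 2 libraries, or DESeq2 1.42.0. Added after seeing the data were matching by versioned ID only and reads of protein-coding transcripts only.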

Additional observations from a re-analysis of the deposited data

How the results depend on the processing

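In Jmjd3 KO against Tdt control, genes called numbered 513, and 1084 with DESeq2, 1872 without the low-count filter, 331 with transcript length offsets, 322 with a replicate block and 113 to 434 with 1 library left out. Presentation genes called numbered 3 of 10, and 5 with DESeq2, 7 without the filter, 1 with coding transcripts only and 1 to 2 with 1 library left out. In Utx KO against Tdt control, genes called numbered 293, and 695 with DESeq2, 1399 without the filter, 131 with length offsets, 119 with only the 4 libraries, 133 with a replicate block and 16 to 96 with 1 library left out. Presentation genes called there numbered 1, and 2 with DESeq2, without the filter or among protein-coding genes only, and 0 with the 4 libraries, with a replicate block and with any 1 library left out. In Jmjd3 KO against Utx KO, genes called numbered 1370, and 2856 without the filter, 793 with length offsets and 291 to 1387 with 1 library left out, and presentation genes 7, and 4 to 7 with 1 library left out. Against Tdt control DESeq2 called 11 interferon-stimulated genes in Jmjd3 KO (edgeR 3) and 4 in Utx KO (edgeR 1), and 4 macrophage markers in each (edgeR 2 and 1). With the replicate block the adjusted p was 0.0732 for Psmb8 in Jmjd3 KO, 0.0600 for B2m in Utx KO and 0.0509 for H2-T23 between the knockouts. Replicate numbers did not pair the libraries (correlations of replicate differences -0.0081, -0.0107 and -0.0532). Signs turned 3 times, all near 0 in Utx KO against Tdt control: Tap2 at 0.0015 with length offsets and 0.0076 without Utx KO replicate 2, and Psmb9 at 0.0218 without Tdt control replicate 1 (with 1 library left out, -0.0316 to 0.0076 for Tap2 and -0.2343 to 0.0218 for Psmb9). The cause was not tested. Tap2 in Jmjd3 KO against Tdt control kept its call under every alternative run except coding transcripts only. Between the knockouts B2m, Tap1, Tap2 and Psmb8 kept their calls under every alternative run. Depth limits Nlrc5, with 28 to 120 reads per library.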
